A study of Homo sapiens with 16 samples.

Results

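The libraries described here are the baseline of an experiment in HepG2 cells: the 8 cultures that received a control siRNA, out of 16 libraries in the series. They were taken by their label alone. The other 8 libraries, from cultures given siRNA against HCF-1, were not compared with them. HepG2 is an established human cell line grown from a liver tumour, and all 8 cultures are of this 1 line. The cultures grew in EMEM with 10% fetal bovine serum under 5% CO2. Control siRNA was introduced by reverse transfection with siPORT NeoFX and again 2 days later, and RNA was taken after a further 2 days and made into stranded mRNA libraries. The labels describe the cultures as biological replicates. Untransfected HepG2 cells were not analysed here, so an effect of transfection common to all 8 cultures cannot be told apart from the line's own levels.

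Hepatocytes, the main cells of the liver, secrete albumin and most other blood plasma proteins, assemble lipoproteins, make bile acids, clear drugs through cytochrome P450 and conjugating enzymes, and keep blood glucose and ammonia in check. The fetal liver makes alpha-fetoprotein in place of much of the albumin, and liver tumours often make it again. For many steps of metabolism the genome holds a liver form of an enzyme and a form used by most other tissues. Which of these programmes a hepatoma line keeps is the question that a description of its baseline addresses.

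The measures used below are 3. A normalized count is the number of reads on a gene after scaling each library by its size factor, as deposited. TPM, the usual unit of transcript abundance, divides reads by the gene's transcript length and scales each library to the same total, and levels of different genes are compared only in TPM. The spread over the 8 libraries is given as a coefficient of variation (CV, the SD as a percentage of the mean) of the normalized count. Each level is given as the lowest, the median and the highest of the 8 libraries, in that order.

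The libraries held 21030830 to 32820459 reads on 23780 to 25822 genes with a read. For 11438 genes with a mean of at least 100, normalized counts were compared between libraries on the log2(count + 1) scale. Their Pearson correlation across genes was 0.967 to 0.978, lowest between replicates 3 and 6. Replicate 3 had the widest deviations from the gene medians, with an SD of 0.322 against a median of 0.285 over the libraries. Of the 19703 protein-coding genes with a known transcript length, 11863 had a mean of 1 TPM or more, called expressed here, which is 60.2%. Their median, with unexpressed genes included, was 4.86 TPM. At least 100 TPM was reached by 1675 protein-coding genes and at least 1000 TPM by 106. Only 7.66% of pseudogenes, 7.65% of long intergenic RNA genes and 15.8% of antisense genes were expressed by the same rule. The 23 gene lists described below held 753 genes in all, of which 752 had a length and 619 were expressed. Each list's count of expressed genes is to be read against the 60.2% of all protein-coding genes.

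All 5 markers of the hepatoma label were high in every library. Albumin (ALB) was at 5559, 6076 and 7051 TPM and ranked 3 among the genes that have a TPM here. AFP, which encodes alpha-fetoprotein, was at 721, 823 and 952 TPM. APOH, which encodes a phospholipid-binding plasma glycoprotein, was at 1923, 2215 and 2561 TPM. The simple epithelial keratins were high too, KRT8 at 1991, 2234 and 2409 TPM and KRT18 at 1202, 1352 and 1466 TPM. Each of the 5 exceeded the protein-coding median in all 8 libraries, with CVs of 5.77% to 9.30%, and the markers match the label. In RNA from a whole culture, fewer cells expressing a gene and less RNA per cell cannot be told apart. ALB, AFP and APOH all had their 2 highest normalized counts in replicates 1 and 5, and KRT8 and KRT18 had their 2 lowest there, a pattern picked out after the values were seen. In replicate 5, for example, ALB had 166204 normalized counts, the highest of the 8 libraries, and KRT18 had 26136, the lowest. The pattern was not particular to these markers. The summed TPM of the plasma protein list was highest in replicates 1 and 5 (26813 and 27117). That of the list of keratins and junctions was lowest there (5178 and 5307). A2M, ITIH2 and HSPA8 also had their 2 highest TPM in replicates 1 and 5.

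**Figure D1:**
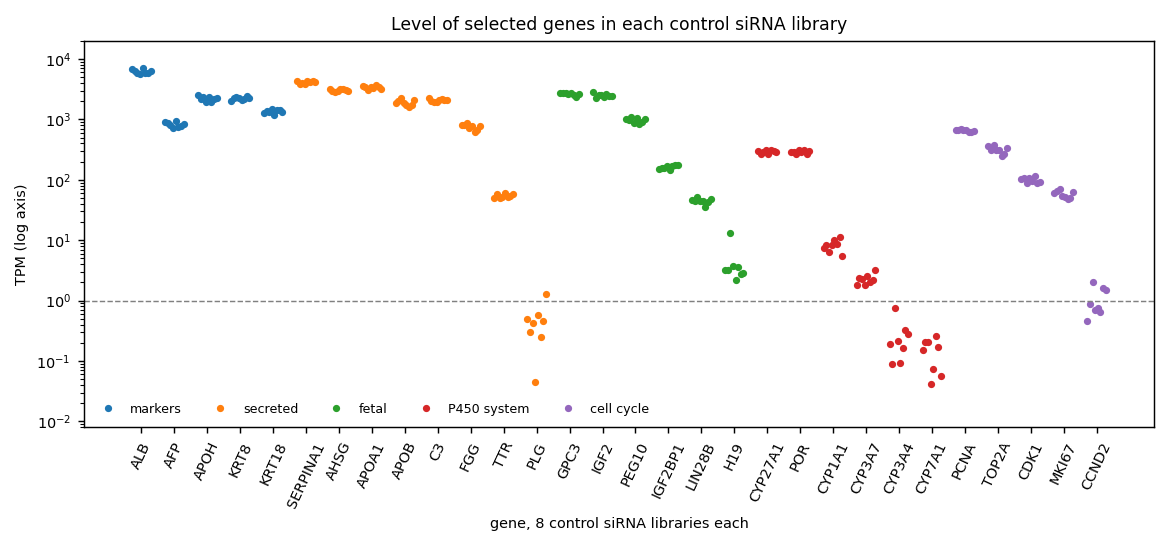
TPM on a log axis of 30 genes in each of the 8 control siRNA libraries, coloured by group, with 1 TPM dashed. The 5 markers sit between 721 and 7051 TPM in every library, while PLG, CYP3A4 and CYP7A1 sit near or below 1 TPM and scatter more.

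The 250 bases before the start sites of ALB, AFP and APOH are shown because these 3 markers were highest in the same libraries and each window holds the letters GTTAAT, the core of a homeodomain motif known from liver gene promoters. Sequences are from RefSeq, build GRCh38.p14, written 5′ to 3′ on the gene's strand and ending at the base before the start. Capitals mark GTTAAT or, on the other strand, ATTAAC. They lie at chr4:73404037-73404286 on the plus strand for ALB, at chr4:73435971-73436220 on the plus strand for AFP and at chr17:66229416-66229665 on the minus strand for APOH.
ALB: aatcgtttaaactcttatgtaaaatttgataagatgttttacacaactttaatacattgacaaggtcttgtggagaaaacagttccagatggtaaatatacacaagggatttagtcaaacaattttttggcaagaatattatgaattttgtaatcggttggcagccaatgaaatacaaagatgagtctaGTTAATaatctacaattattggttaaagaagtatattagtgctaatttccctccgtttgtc
AFP: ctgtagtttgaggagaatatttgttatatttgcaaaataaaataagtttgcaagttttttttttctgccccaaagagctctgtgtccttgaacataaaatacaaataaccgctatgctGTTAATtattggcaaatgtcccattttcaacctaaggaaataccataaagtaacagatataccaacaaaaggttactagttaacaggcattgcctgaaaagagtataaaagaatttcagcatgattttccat
APOH: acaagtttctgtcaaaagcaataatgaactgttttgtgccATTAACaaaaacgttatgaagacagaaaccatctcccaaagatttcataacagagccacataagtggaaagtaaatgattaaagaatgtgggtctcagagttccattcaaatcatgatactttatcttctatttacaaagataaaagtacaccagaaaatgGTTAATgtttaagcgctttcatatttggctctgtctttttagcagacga
The first base of the motif lay 61 bases before the start in ALB, 132 in AFP, and 210 and 49 in APOH. In windows of the same length, GTTAAT on either strand was found before 6.37% of all 27305 genes in the RefSeq table. It was found before 5.08% of 15117 protein-coding genes that matched the deposited table, and before 3.68% of the 9542 expressed among them. It was found for 6 of 23 matched plasma protein genes, 9 of 28 coagulation and complement genes and 5 of 16 fetal genes. It was also found for 2 of 6 cholangiocyte markers and 4 of 21 brakes and tumour genes, but for 0 of 8 apolipoprotein genes and 1 of 21 hepatocyte transcription factor genes. It was found for 1 of 46 proliferation genes and 1 of 68 ribosomal protein genes, and for 0% to 15.4% of the members of each of the other 14 lists, so liver lists lay at both ends. These are letter matches and do not show that any factor binds there. A link between the motif and the libraries in which these markers were highest was not tested, and other genes were highest there too.

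By normalized count the 10 highest genes were EEF1A1, RNA28S5, FN1, APOB, FTL, SERPINA1, ALB, IGF2, EEF2 and C3. They took 8.01% ± 0.150 of reads (SD, n = 8 libraries), and the range was 7.81% to 8.24%. EEF1A1 and EEF2 are translation elongation factors, RNA28S5 is a ribosomal RNA and FTL is the light chain of the iron store ferritin. FN1 encodes fibronectin, a secreted matrix and plasma protein, and APOB, SERPINA1, ALB, IGF2 and C3 also encode secreted proteins. By count, which is not divided by transcript length, 6 of the 10 highest genes were thus for secretion. By TPM the order was FTL, EEF1A1, ALB, FTH1, ACTG1, RP5-857K21.11, ACTB, RPS2, RP11-742N3.1 and SERPINA1. Of the 6 secreted genes above, only ALB and SERPINA1 are among these. FN1, IGF2, C3 and APOB ranked 24, 42, 61 and 67 by TPM. RP5-857K21.11 (now MTCO3P12) and RP11-742N3.1 (now RPS28P7) are annotated as pseudogenes, near-copies of a mitochondrial gene and of RPS28. RPS28 itself was at 16.4, 22.5 and 45 TPM, and it is not stated how reads were divided between such copies, so the values of both are uncertain. The same limit applies to genes with many processed copies (EEF1A1, FTL, FTH1, ACTB, KRT8, KRT18) and to close paralogs (ORM1 and ORM2, AKR1C1 and AKR1C2, the CYP3A, GSTM, UGT2B and MT1 genes).

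Plasma protein genes were the most strongly expressed of the liver lists. Of 31 measured, 28 were expressed, 18 reached 100 TPM, and the list median was 212 TPM. Highest was ALB, followed by SERPINA1, which encodes the protease inhibitor alpha-1-antitrypsin, at 3876, 4126 and 4369.8 TPM. AHSG, which encodes fetuin-A, was at 2874, 3014 and 3141 TPM. The ranges of ALB, SERPINA1, AHSG and APOH did not overlap, so their order held in every library. ITIH2 (1417, 1529.9 and 1690.2 TPM) and AMBP (1320.0, 1405 and 1505 TPM), both parts of the inter-alpha-inhibitor family, overlapped in range, although ITIH2 was higher in every library. TF, which encodes transferrin, had the 11th highest count, 110643 normalized counts on average, but only 465, 512 and 572 TPM because its longest annotated transcript is 20602 bases. Its place in the TPM order is therefore uncertain. HP, which encodes haptoglobin, was at 309, 338 and 358 TPM, and its mean rose from 336 to 598 TPM when the length of the principal transcript in the APPRIS catalogue was used.

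Not all plasma proteins were high. TTR, which encodes the thyroid hormone and retinol carrier transthyretin, was at 49.6, 53.5 and 60.6 TPM, and its partner RBP4 at 1069, 1094 and 1204 TPM. HPX, the haem-binding hemopexin gene, was at 36.4, 51.5 and 80.6 TPM. ITIH4 was at 0.861, 2.11 and 4.0 TPM. The lowest members were HRG (0.0194, 0.0664 and 0.239 TPM), GC, which encodes the vitamin D carrier, with 0, 0 and 0.364 TPM, and CRP, an acute-phase gene with no read in any library. A count of 0 over the 8 libraries together allows up to 3 reads, a limit from counting alone.

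Apolipoproteins, the protein parts of lipoprotein particles, were expressed for 12 of 15 genes with a median of 123 TPM. APOA1 and APOA2, of high-density lipoprotein, were at 3021, 3382 and 3680.3 TPM and 2591, 2844 and 3344 TPM. APOA2 reached a mean of 4806 TPM with the APPRIS length, against 2891, which would put it above APOA1. APOB, of low-density lipoprotein, was at 1597, 1861 and 2279 TPM, and APOE at 1425, 1494 and 1614 TPM. APOB and APOE overlapped in range, although APOB was higher in every library. APOC1, APOC2 and APOC3 followed at medians of 704, 572 and 374 TPM. APOF and APOA4 were under 10 TPM, APOC4 and APOD were under 2 TPM in every library, and LPA, the gene of lipoprotein(a), had no read.

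Of 34 coagulation and complement genes, 27 were expressed and the median was 27.1 TPM. C3, the central complement component, was at 1935, 2082 and 2238 TPM. The 3 fibrinogen chains differed: FGG was at 626, 776 and 855 TPM, FGA at 474, 509 and 547 TPM and FGB at 247, 271 and 303 TPM, with no overlap between them. Prothrombin (F2) was at 475, 543 and 581 TPM and SERPINF2, the plasmin inhibitor gene, at 632, 686 and 766 TPM. Antithrombin (SERPINC1) was lower, at 66.3, 80.2 and 97.2 TPM. Some members had few reads or none in most libraries. PLG, which encodes plasminogen, was at 0.0455, 0.443 and 1.30 TPM, and F8 at 0.0880, 0.134 and 0.550 TPM. F9 and C9 had a median of 0 TPM, with highest libraries at 0.0738 and 0.0459 TPM.

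Fetal and oncofetal genes were expressed for 27 of 32 measured members, 12 of them at 100 TPM or more. GPC3, a cell-surface proteoglycan used as a liver tumour marker, was at 2368, 2638 and 2757 TPM. IGF2, a fetal growth factor, was at 2278, 2467 and 2818 TPM and overlapped GPC3, and 75% of its annotated exon bases are shared with another gene. PEG10, an imprinted gene of retroviral origin, was at 848, 992 and 1093 TPM, above AFP in each of the 8 libraries although their ranges overlapped. MDK, the gene of the growth factor midkine, was at 669.6, 712 and 755 TPM. All 3 IGF2 mRNA-binding proteins were expressed, IGF2BP1 at 147, 163 and 178 TPM, IGF2BP2 at 134, 146 and 149.9 TPM and IGF2BP3 at 83.9, 92.4 and 105 TPM. HMGA2, a chromatin protein of embryonic cells, was at 106, 108 and 119 TPM and reached a mean of 171 TPM with the APPRIS length. LIN28B, which blocks let-7 processing, was at 35.5, 45.1 and 52.7 TPM, whereas its paralog LIN28A was at 0.249, 0.266 and 0.352 TPM. TRIM71 (74.7, 86.2 and 102 TPM), itself a let-7 target, PEG3 (141, 155 and 167 TPM), MEST (57.4, 67.7 and 77.3 TPM) and DLK1 (29.8, 31 and 32.4 TPM) were also expressed.

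Further members of that list mark progenitor or tumour cells. EPCAM was at 209, 249 and 268 TPM, SOX9 at 166, 173 and 195 TPM and ANXA2 at 150.0, 169 and 178 TPM, the last with a mean of 299 TPM by APPRIS length. AKR1B10 was at 38.8, 48.7 and 56.8 TPM, SOX4 at 21.8, 23.4 and 26.7 TPM and PROM1 at 8.80, 12 and 17.6 TPM. GOLM1 was at 2.50, 3.69 and 5.05 TPM, SPINK1 at 1.54, 2.79 and 3.73 TPM (a mean of 4.98 TPM with the APPRIS length) and PLAGL1 at 1.47, 1.72 and 2.18 TPM. H19, the imprinted RNA that neighbours IGF2, was at 2.23, 3.22 and 13.3 TPM: the highest library stood well above the other 7. AFM, a neighbour of ALB and AFP in the albumin gene family, was at 0.155, 0.422 and 1.26 TPM, and the stem-cell factor SALL4 at 0.119, 0.545 and 0.759 TPM. Among fetal and embryonic globins, HBE1 was at 1.49, 2.37 and 2.92 TPM, HBG2 at 0, 0.455 and 3.33 TPM and HBZ at 0, 0.203 and 0.847 TPM, and HBG1 had no read. HBG1 and HBG2 are near-identical, so their split is uncertain.

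Of 30 hepatocyte transcription factor genes, 29 were expressed. Their levels were lower than those of the secreted proteins, with a median of 27.8 TPM and 4 genes at 100 TPM or more. These were HNF4A (148, 152 and 173 TPM), the nuclear receptor that maintains hepatocyte identity, CEBPA (131, 151 and 160.4 TPM), the pioneer factor FOXA1 (108, 122 and 134 TPM) and HHEX (100.3, 113 and 118 TPM). HNF4A was above CEBPA in 5 of 8 libraries, so these 2 could not be ordered, and both were above FOXA1 in all 8. FOXA2 was at 60.4, 65.2 and 68.1 TPM and FOXA3 at 36.2, 38.5 and 46.9 TPM, and NR1H4, the bile acid receptor gene, at 26.4, 31.8 and 41.4 TPM. The low end held ONECUT1 (4.27, 7.15 and 10.6 TPM), NR1I3 (0.520, 2.02 and 7.72 TPM), which encodes the xenobiotic receptor CAR, and NR5A2 (0.0816, 0.207 and 3.57 TPM), the member below 1 TPM. NR1I2, which encodes the related receptor PXR, was at 9.66, 10.7 and 12.3 TPM. RXRA, the shared partner of these receptors, was at 56.3, 61.6 and 66.1 TPM, or a mean of 163 TPM with the APPRIS length.

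The cytochrome P450 list had the lowest median of the liver enzyme lists. Of its 34 P450 genes 15 were expressed, 44.1%, under the share of all protein-coding genes, and the median was 0.560 TPM. The highest was CYP27A1, a mitochondrial sterol hydroxylase, at 269, 291 and 310.5 TPM. POR, the reductase that serves these enzymes and the list's only other member, was at 265, 290.2 and 316 TPM, overlapping with it. CYP24A1, which breaks down vitamin D, was at 168, 186 and 219 TPM, CYP51A1, of cholesterol synthesis, at 51.5, 64.1 and 88.1 TPM and CYP2W1 at 48.1, 55.5 and 61.3 TPM. The drug-metabolising forms were low. CYP1A1 was at 5.41, 8.31 and 11.1 TPM and CYP1A2 at 0.0457, 0.283 and 0.514 TPM. CYP3A4, the main drug oxidase of adult liver, was at 0.0876, 0.202 and 0.756 TPM, below the fetal form CYP3A7 at 1.78, 2.23 and 3.23 TPM and CYP3A5 at 1.84, 2.71 and 5.93 TPM (a mean of 5.09 TPM with the APPRIS length). CYP2D6 was at 0.442, 0.778 and 1.07 TPM, CYP2B6 at 0, 0.0616 and 0.859 TPM and CYP2E1 at 0, 0.0145 and 0.677 TPM, or 0.515 TPM on average with the APPRIS length. CYP2C19 and CYP2C8 had a median of 0 TPM with highest libraries of 0.136 and 0.0589 TPM, and CYP2A6 had no read. CYP7A1, the rate-limiting enzyme of bile acid synthesis, was at 0.0423, 0.162 and 0.261 TPM, and CYP8B1 at 2.73, 3.50 and 3.99 TPM.

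Conjugating and other drug enzymes were better represented, with 37 of 52 (71.2%) expressed, against 60.2% of all protein-coding genes, and a median of 26.0 TPM. ALDH1A1, an aldehyde dehydrogenase, was at 784, 918 and 947 TPM, and the quinone reductase NQO1 at 573, 647 and 684 TPM. GSTO1 was at 379.5, 416 and 446 TPM, the carboxylesterase CES1 at 337, 372 and 410.2 TPM and ADH5 at 343, 359 and 374 TPM. The aldo-keto reductases AKR1C1, AKR1C2 and AKR1C3 had medians of 246, 219 and 269 TPM. Alcohol dehydrogenases of adult liver differed: ADH6 was at 57, 63.5 and 75.6 TPM and ADH4 at 32.4, 39.7 and 53.7 TPM. The ADH1 genes were near 0, ADH1B at 0.0334, 0.0935 and 0.256 TPM, ADH1C at 0, 0.0277 and 0.382 TPM and ADH1A at 0, 0 and 0.249 TPM. NNMT and GSTP1 had 1 read each over all 8 libraries, and UGT3A1 and UGT2B17 had highest libraries of 0.0208 and 0.154 TPM.

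Bile acid and drug transport genes showed 24 of 29 expressed, none at 100 TPM, with a median of 11.8 TPM. Export pumps of the ABCC family led, with ABCC2 at 75.5, 84.8 and 92.9 TPM, ABCC3 at 65.3, 71.5 and 87.7 TPM and ABCC1 at 54, 63.5 and 70.6 TPM. HSD3B7, an enzyme of bile acid synthesis, was at 62.7, 67.4 and 75.1 TPM and the carrier SLC22A7 at 31.7, 39.5 and 45.2 TPM. The hepatocyte uptake carriers and the bile salt pump were at the bottom. SLC10A1, the sodium-dependent bile acid carrier, was at 0.0501, 0.441 and 0.730 TPM. SLCO1B1, SLCO1B3 and ABCB11 had a median of 0 TPM and highest libraries of 0.0745, 0.0315 and 0.0154 TPM.

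**Figure D2:**
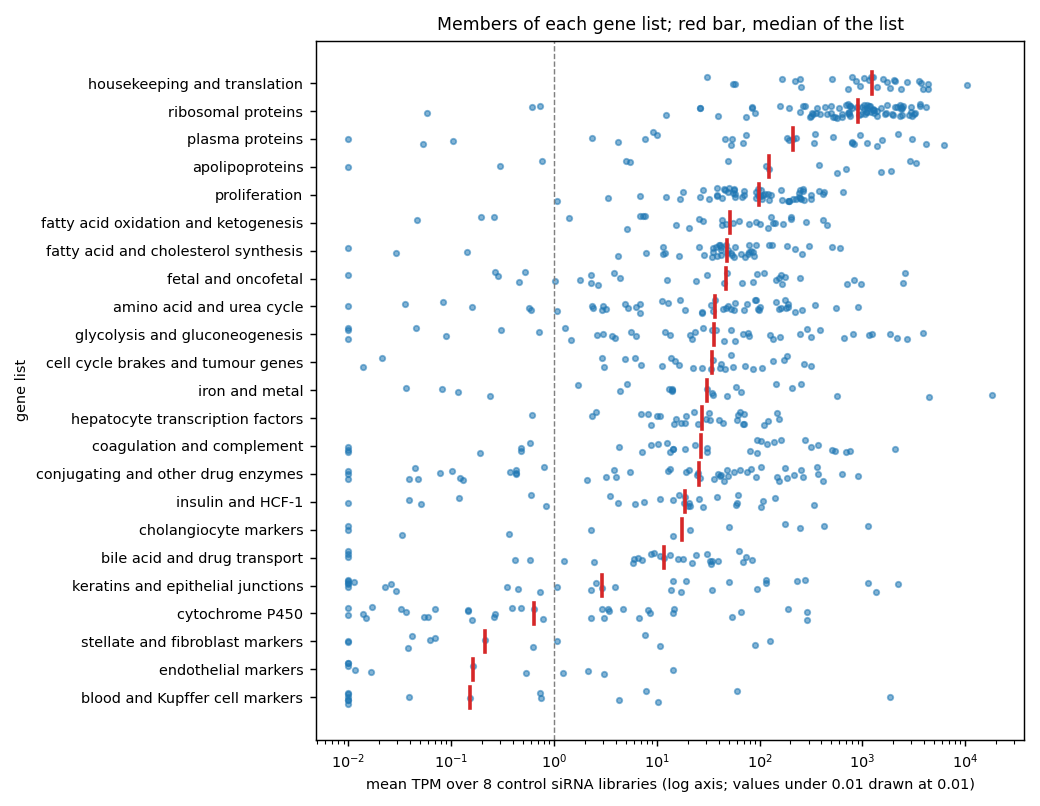
Mean TPM over the 8 libraries on a log axis for every measured member of the 23 gene lists, with the list median as a red bar and 1 TPM dashed; vertical scatter within a list has no meaning. Housekeeping and ribosomal protein lists lie highest (medians 1241 and 915 TPM), plasma proteins are next (212 TPM), and the cytochrome P450 list (with POR) and the 3 lists of blood, endothelial and stellate markers have medians under 1 TPM.

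Glycolysis and gluconeogenesis genes were expressed for 37 of 44 members, with a median of 35.9 TPM. The 5 highest were all enzymes of the lower or common glycolytic path: GAPDH (3744, 3921 and 4069 TPM), ENO1 (2548, 2726 and 2798 TPM), ALDOA (2082, 2175 and 2311 TPM), LDHA (1707, 1878 and 1956 TPM) and PKM (1164, 1241 and 1328 TPM). The ranges of these 5 did not overlap, while PKM overlapped with the next enzyme, TPI1 (1061, 1174 and 1293 TPM). PKM was nevertheless above TPI1 in every library. The glucose-forming enzymes were lower. G6PC, the last step of glucose release, was at 2.52, 3.19 and 6.72 TPM, PCK1 at 2.30, 3.08 and 3.73 TPM and FBP1 at 0.414, 0.744 and 1.03 TPM, while the mitochondrial PCK2 was at 268, 317 and 346 TPM and pyruvate carboxylase (PC) at 60.3, 68.3 and 82.8 TPM. HK3 had no read.

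Amino acid and urea cycle genes were expressed for 45 of 51 members, with a median of 36.9 TPM. GLUD1, which releases ammonia from glutamate, was at 707, 893 and 1162 TPM, and HPD, of tyrosine breakdown, at 517, 558 and 615 TPM. The serine synthesis enzymes PSAT1 and PHGDH were at 295, 345 and 397 TPM and 166, 176 and 188 TPM. GOT2 was at 247, 262 and 270.4 TPM and GLUL, glutamine synthetase, at 212, 219 and 233 TPM. The steps of the urea cycle were uneven. ASS1 was at 88.8, 97.7 and 107 TPM, ASL at 39.5, 52.8 and 62.6 TPM and CPS1 at 24.7, 27.4 and 30.9 TPM, but ARG1 was at 1.63, 2.28 and 3.68 TPM and OTC at 0.304, 0.459 and 1.30 TPM. TAT, a tyrosine aminotransferase induced around birth, was at 2.20, 2.94 and 3.55 TPM. KMO (0, 0.0558 and 0.689 TPM), SDS (0, 0.0914 and 0.165 TPM) and AGXT2 (0, 0 and 0.130 TPM) were near 0, and TDO2, the liver tryptophan dioxygenase, had no read.

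Fatty acid and cholesterol synthesis was nearly complete, with 42 of 45 genes expressed and a median of 48.3 TPM. SCD, the stearoyl-CoA desaturase, was at 556, 600.3 and 664 TPM. FASN, fatty acid synthase, was at 277, 297 and 332 TPM, ACLY at 226, 263 and 289 TPM and FDFT1 at 207, 222 and 241 TPM. SREBF2 and SREBF1, the transcription factors that drive these pathways, were at 67.3, 79 and 92.1 TPM and 44.8, 57.1 and 71.3 TPM. The 3 members below 1 TPM were THRSP (0, 0.0891 and 0.452 TPM), INSIG1 (0, 0.0296 and 0.110 TPM) and the malic enzyme ME1, which had no read. No source used here names the annotation or strand setting of the counting. For genes with few or no reads, such as these, low expression and reads missed in counting cannot be told apart. INSIG1 holds the SREBP pathway in check, and its paralog INSIG2 was at 32.5, 37.7 and 42.8 TPM.

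Fatty acid oxidation and ketogenesis genes were expressed for 27 of 30 members, with a median of 51.2 TPM. ETFB, an electron carrier, was at 419, 460.0 and 472 TPM, or a mean of 1515 TPM with the APPRIS length. Both subunits of the trifunctional protein were high, HADHA at 382, 417 and 456 TPM and HADHB at 195, 204 and 213 TPM, with HADHA above HADHB in every library. ECHS1 was at 274, 281 and 293 TPM and ACADVL at 191, 199.7 and 214 TPM. CPT1A, the entry step of oxidation, was at 5.46, 7.73 and 10.0 TPM. ACADL was at 0, 0.0365 and 0.147 TPM. FABP1, the liver fatty acid binding protein, was at 120.2, 127 and 144 TPM, or 413 TPM on average with the APPRIS length.

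Related genes were compared in 23 pairs, most of which set a gene typical of adult liver against a counterpart of fetal liver or wider use, as the log2 ratio of TPM + 0.1 within each library. In 21 pairs all 8 libraries lay on the same side, with p = 0.00781 by a two-sided exact sign-flip permutation test, the smallest that sign flips of 8 libraries can give, and 0.00875 after Benjamini-Hochberg adjustment over all 28 pairs tested. All 23 pairs passed. However, the pairs were chosen with earlier results of these data known, so the number passing is not evidence in itself. Passing shows only that the ratio was steady between libraries with the lengths used. Some pairs passed although their order turned with another length, as given below. The pairs are of different kinds, so no total by direction is given. The test covers the spread between libraries and not the choice of transcript length. Where 1 gene lies near or under 0.1 TPM, the size of the ratio depends on the amount added.

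In glucose metabolism, liver forms were lower than their counterparts for pyruvate kinase, the glucose carriers and glycogen synthase, and higher for phosphofructokinase. The log2 ratio, given as mean ± SD over 8 libraries, was -5.83 ± 0.20 for PKLR over PKM. The glucose carrier SLC2A2, of liver and pancreas, was below SLC2A1 with a log2 ratio of -4.83 ± 0.25 and below SLC2A3 with -3.77 ± 0.18. PCK1, the cytosolic enzyme, against the mitochondrial PCK2 gave -6.68 ± 0.34. GYS2, of liver, had 1 read over all libraries against 10643 for GYS1. PFKL, the liver phosphofructokinase, exceeded PFKM by 6.55 ± 0.34. LDHA, the main lactate dehydrogenase subunit of liver, had 360227 reads against 1 for LDHB, the heart subunit. PYGL exceeded PYGB by only 0.23 ± 0.13, and this sign turned to -0.31 with the union of exons as length and to -1.20 with the median transcript length. FBP1 exceeded FBP2 in 7 of 8 libraries, by 1.00 ± 0.62 (exact permutation p = 0.0156, adjusted 0.0162), with 83 and 32 reads in all.

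Amino acid and lipid enzymes went both ways. MAT1A, of adult liver, was below MAT2A (-1.05 ± 0.17) and ARG1 below ARG2 (-3.95 ± 0.35). CPS1, of the urea cycle, was below CAD, of pyrimidine synthesis, in 7 of 8 libraries (-0.56 ± 0.29; exact permutation p = 0.0156, adjusted 0.0162). ACACB was below ACACA (-2.43 ± 0.25), while CPT1A was above the muscle form CPT1B (2.43 ± 0.84). DGAT2 was below DGAT1 (-0.65 ± 0.15), but the ratio was 0.06 with the median length and 0.62 with the APPRIS length, so this pair has no settled order.

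Pairs of other roles were mixed. ALB exceeded AFP by 2.90 ± 0.04, 7.47 times on the mean TPM, with the smallest spread of these pairs. IGF1, the adult growth factor, had 26 reads in all against 1116974 for IGF2. Its log2 ratio of -14.16 ± 0.65 is set largely by the 0.1 TPM added, and was -16.31 with 0.01 TPM and -11.22 with 1 TPM. CYP3A4 was below CYP3A7 (-2.85 ± 0.75) and CYP7A1 below CYP27A1 (-10.28 ± 0.52), which start different routes of bile acid synthesis. With 1 TPM added these ratios were -1.38 and -7.99. TFR2 was below TFRC (-2.61 ± 0.21). KRT8 was above KRT7 (9.91 ± 0.45). KRT18 was above KRT19 by 0.24 ± 0.06, a sign that turned to -0.29 with the median transcript length. GSTA1 had 1105 reads against 1 for GSTP1.

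**Figure D3:**
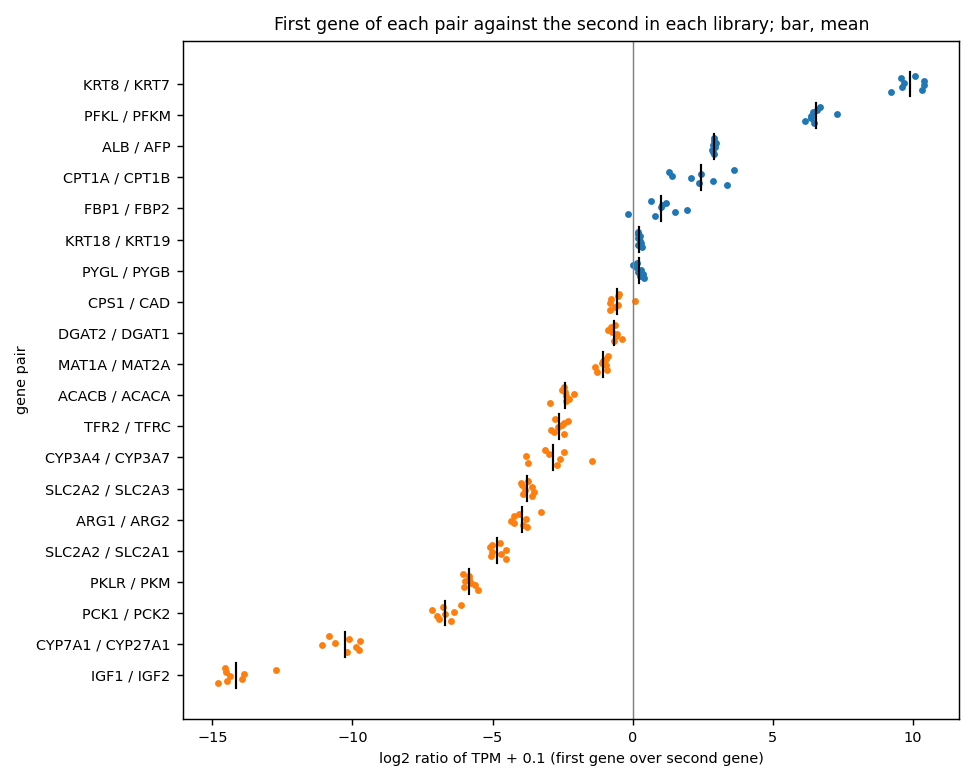
Log2 ratio of TPM + 0.1, first-named gene over the second, in each of the 8 libraries (points) with the mean (bar), for the 20 pairs in which both genes had more than 1 read. The means run from -14.16 for IGF1/IGF2, whose size depends on the 0.1 added, to 9.91 for KRT8/KRT7. The points of most pairs lie close together compared with the distance between pairs.

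Proliferation genes were expressed throughout: all 59 had a mean of at least 1 TPM (CCND2, the lowest, only just, at 1.07), 29 reached 100 TPM, and the median was 99.4 TPM. Replication genes led. PCNA, the sliding clamp of DNA polymerase, was at 618, 655 and 698 TPM, TYMS, thymidylate synthase, at 411, 421 and 443 TPM, and the ranges did not overlap. The helicase subunits MCM3, MCM7, MCM2, MCM4, MCM5 and MCM6 had medians of 377, 275, 193, 165, 114 and 56.7 TPM. Ribonucleotide reductase was at 240.5, 251 and 272 TPM for RRM2 and 109, 130.1 and 138 TPM for RRM1, and TK1 at 238, 265 and 289 TPM. Among licensing and origin genes, medians were 105 TPM for CDT1, 44.6 for CDC6, 31.7 for CDC45 and 197 for the licensing inhibitor GMNN.

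Mitotic genes were close behind. TPX2, a spindle assembly factor, was at 299, 316 and 347 TPM and TOP2A, the mitotic topoisomerase, at 252, 312 and 381 TPM. The kinases AURKA, AURKB, PLK1, BUB1 and CDK1 had medians of 251, 164, 197, 98.7 and 100.3 TPM. PLK1 reached a mean of 307 TPM with the APPRIS length. UBE2C and CDC20, of the anaphase-promoting complex, were at 226, 243 and 265 TPM and 222, 242 and 262 TPM, and BIRC5 at 197, 211 and 227 TPM. MKI67, the gene of the Ki-67 antigen, was at 48.6, 57.8 and 70.1 TPM. CENPE, a kinetochore motor, was lowest of this group at 4.25, 5.60 and 11.7 TPM.

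Cyclins and their kinases were uneven. CCND1 was at 354, 402 and 492 TPM, CCND3 at 14.1, 17.6 and 24.2 TPM and CCND2 at 0.455, 0.806 and 2.02 TPM, with no overlap among the 3. CCNB1 was at 211, 225 and 236 TPM, CCNA2 at 108, 123 and 136 TPM, CCNB2 at 83.9, 93 and 104 TPM, CCNE1 at 42.8, 46 and 50.8 TPM and CCNE2 at 1.70, 3.48 and 4.74 TPM. CDK4 was at 221, 253 and 277 TPM, CDK2 at 51.8, 54.9 and 62.8 TPM and CDK6 at 44.5, 47.6 and 59.5 TPM. The transcription factors MYBL2, FOXM1, E2F1, E2F3 and E2F2 had medians of 261, 96.1, 70.0, 16.9 and 12 TPM. The summed TPM of the whole proliferation list was 8018 to 8450 over the 8 libraries, a CV of 1.57%. The libraries thus differed little in this sum, but single members varied more. For the 58 members with a mean of at least 100 normalized counts, the median CV beyond counting was 6.81%.

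Among 28 brakes and tumour genes, 26 were expressed with a median of 34.8 TPM. CTNNB1, the gene of beta-catenin, was at 302, 321 and 330.2 TPM, and 2 targets of its pathway, AXIN2 and LGR5, at 123, 135 and 144 TPM and 47, 52.8 and 73.3 TPM. MYC was at 263, 269 and 283 TPM, whereas MYCN had a median of 0 TPM. NFE2L2, the oxidative stress factor, was at 179, 184 and 197 TPM and its inhibitor KEAP1 at 64.3, 74.3 and 81.5 TPM. CDKN1A, which encodes the p21 inhibitor, was at 148, 172 and 192 TPM. CDKN2A was at 11.1, 13.8 and 15.6 TPM and CDKN1C, an imprinted inhibitor, had a median of 0 TPM. TERT, the telomerase gene, was at 1.59, 3.18 and 4.63 TPM.

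Iron and metal genes included the highest TPM of all genes that have one here. FTL was at 17501, 18389 and 19302 TPM and the ferritin heavy chain FTH1 at 4281, 4535 and 4660.5 TPM. MT2A, a metallothionein, was at 502, 546 and 644 TPM, while MT1M and MT1H had a median of 0 TPM. TFRC, the transferrin receptor, was at 191, 207 and 231 TPM, SLC39A14 at 222, 249.5 and 302 TPM and HAMP, which encodes the iron hormone hepcidin, at 53.3, 65.9 and 79.6 TPM. HAMP reached a mean of 228 TPM with the APPRIS length. The hepcidin regulators HJV and BMP6 were at 0.0432, 0.130 and 0.171 TPM and 0.111, 0.207 and 0.451 TPM.

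Of 31 keratins and junction genes, 19 (61.3%) were expressed, near the 60.2% of all protein-coding genes. The median was 2.96 TPM, since the list holds keratins of other epithelia. After KRT8, KRT18 and KRT19 (999.7, 1174 and 1236 TPM) came the desmosomal gene DSP (264, 275 and 302 TPM) and KRT23 (203, 234 and 243 TPM). CDH2 (79.5, 94.8 and 106 TPM) was higher than CDH1 (15.8, 16.6 and 19.3 TPM) in every library. VIM, the intermediate filament of mesenchymal cells, had a median of 0 TPM and a highest library of 0.168 TPM. KRT5, KRT14 and KRT16 had medians of 0 TPM and KRT6A had no read.

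The series concerns the insulin receptor and HCF-1, and 22 of 28 genes of that list were expressed, with a median of 18.7 TPM. HCFC1, which encodes HCF-1, was at 52.6, 59.6 and 76.3 TPM in these control libraries and its paralog HCFC2 at 0.623, 0.844 and 1.08 TPM. INSR was at 15.2, 20.1 and 22.5 TPM, or a mean of 30.5 TPM with the APPRIS length, and IGF1R at 23.7, 27.7 and 31.9 TPM, so IGF1R was higher in every library by the first length and lower on average (23.8 TPM) by the second. IRS1 was at 16.4, 21.4 and 23.4 TPM and IRS2, the other main adaptor of the receptor, at 0.0126, 0.0400 and 0.0627 TPM. IRS2 rests on a few reads per library, and the limit given for INSIG1 and ME1 applies to it. AKT1 and AKT2 were at 54.7, 59 and 64.5 TPM and 48.9, 57.1 and 80.3 TPM. The IGF-binding protein genes IGFBP4 and IGFBP1 led, at 308, 336 and 360.0 TPM and 118, 134 and 189 TPM. FOXO1, an insulin-regulated factor, was at 6.68, 25.9 and 52.5 TPM, with a CV of 54.4%, the widest among expressed members of the list, while FOXO3 was at 19.2, 21.2 and 22.9 TPM.

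Housekeeping and ribosomal protein genes set the upper scale, with medians of 1241 TPM over 30 genes and 915 TPM over 86. EEF1A1 was at 9448, 10616 and 11149 TPM, ACTG1 at 4107, 4278 and 4683 TPM and RPS2 at 3916, 4110.1 and 4653 TPM. TBP, a general transcription factor, was the lowest of the first list at 25.9, 29.3 and 39 TPM. ALB was therefore above ACTB (4065, 4306 and 4685 TPM) and GAPDH in every library.

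Most markers of blood, endothelial and stellate cells were under 1 TPM. The shares expressed were 33.3%, 36.4% and 38.5%, against 60.2% of all protein-coding genes. For cholangiocyte markers the share was 66.7%, near that of all protein-coding genes. Of 15 blood and Kupffer cell markers, 5 were expressed, and the list's summed TPM of 1757 to 2072 came almost wholly from LYZ, the lysozyme gene, at 1671, 1900.3 and 1991 TPM, and CD68 at 53.5, 63 and 66 TPM. PTPRC, MARCO, VSIG4 and TYROBP had a median of 0 TPM. Of the 15 blood and Kupffer cell markers, 10 had a mean under 1 TPM and 3 reached 10 TPM. Of 11 endothelial markers 4 were expressed, with a summed TPM of 17.6 to 23.5, led by ESAM at 11.5, 13.9 and 17.6 TPM, and KDR, TEK and STAB2 had no read. Of 13 stellate and fibroblast markers 5 were expressed, summing to 212 to 264 TPM, mostly from the contractile genes ACTA2 (117, 125 and 138 TPM) and TAGLN (76.1, 90.4 and 103 TPM), with LUM and THY1 at no read. Of 12 cholangiocyte markers 8 (66.7%) were expressed, with a median of 17.7 TPM and a summed TPM of 1939 to 2178, among them KRT19, SPP1 (359, 430.4 and 504 TPM), EPCAM and SOX9, while AQP1 and CFTR had no read and KRT7 was at 1.54, 2.21 and 3.26 TPM. EPCAM and SOX9 are also members of the fetal list.

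Between the 8 libraries, genes varied more than counting alone gives. Over 15917 genes with a mean of at least 10 normalized counts the median CV was 13.5%, where counting alone would give 4.65%. The CV fell with level, from a median of 34.1% at means of 10 to 100 to 13.4% at 100 to 1000, 7.93% at 1000 to 10000 and 5.60% above. Of 11438 genes with a mean of at least 100, 48.1% had a CV under 10% and 98.7% under 50%. After removal of the counting part, the median CV was 9.20% over all protein-coding genes of that level. It was 6.17% for plasma protein genes, 6.81% for proliferation genes, 7.43% for fetal genes, 9.36% for the cytochrome P450 list, 11.8% for insulin and HCF-1 genes and 5.58% for ribosomal protein genes. These lists differ in level, and that was not matched. The most even genes were VPS35 (CV 0.950%), of endosomal sorting, the chaperone HSP90AB1 (1.02%), CLSTN1 (1.33%), TM4SF1 (1.39%) and PCBP2 (1.43%).

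**Figure D4:**
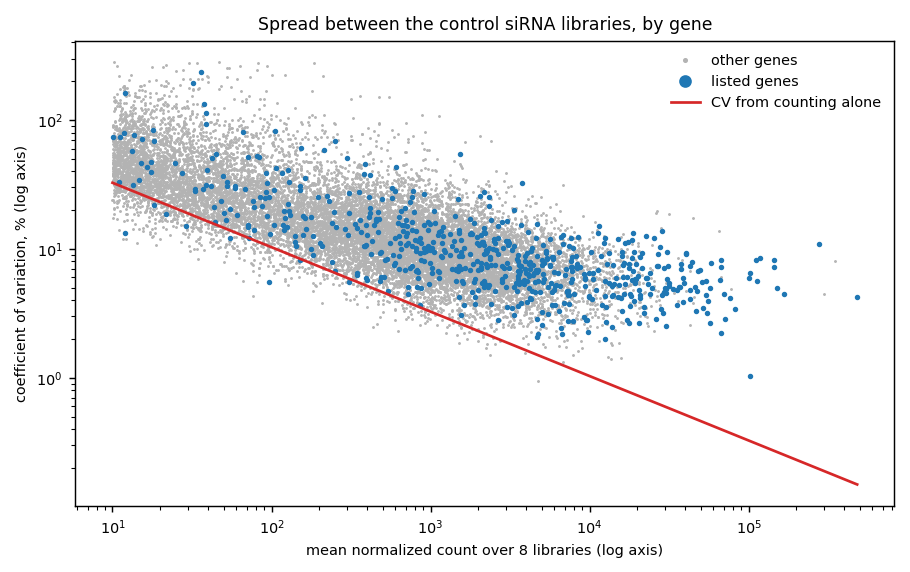
CV over the 8 libraries against the mean normalized count, both on log axes, for 15917 genes with a mean of at least 10; listed genes are blue and the red line is the CV from counting alone. Most genes lie above the line. On the log axis the distance is larger at high counts, where counting gives 0.81% and the median CV is 5.60%. The CV beyond counting itself fell with level, from a median of 26.8% at means of 10 to 100 to 5.55% above 10000.

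The largest CVs came from single libraries or from genes with 2 levels. PTPRT, a receptor phosphatase gene, had 1433 normalized counts in 1 library and at most 9.11 in the other 7. LINC00910 (9.11 to 789.9 normalized counts), DNAH1 (20.8 to 1366) and MIR22HG (43.4 to 915) had CVs of 223%, 221% and 167%. Other genes split the libraries in 2: by a rule made after the values were seen, a gap of at least 3-fold between neighbouring libraries with 2 or more on each side, 40 of 11438 genes (0.350%) had 2 levels. CEP97, a centrosome gene, was at 89.2 to 131 normalized counts in 4 libraries and at 879 to 1604 in the other 4. GLUD1P2, a pseudogene, was at 14.3 to 26.0 in 4 libraries and at 1242 to 2171 in the other 4. The readthrough gene RNASEK-C17orf49 was listed at 0 in 3 libraries and reached 494 in another. The libraries on the high side differed between genes: the 40 genes had 34 different sets of high libraries, no set was shared by more than 3 genes, and 0 of the 40 is in a gene list. At least 30% of exon bases were shared with another gene for 25% of them, against 8.03% of all 11438 genes, and the part of such overlaps in the 2 levels was not tested.

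**Figure D5:**
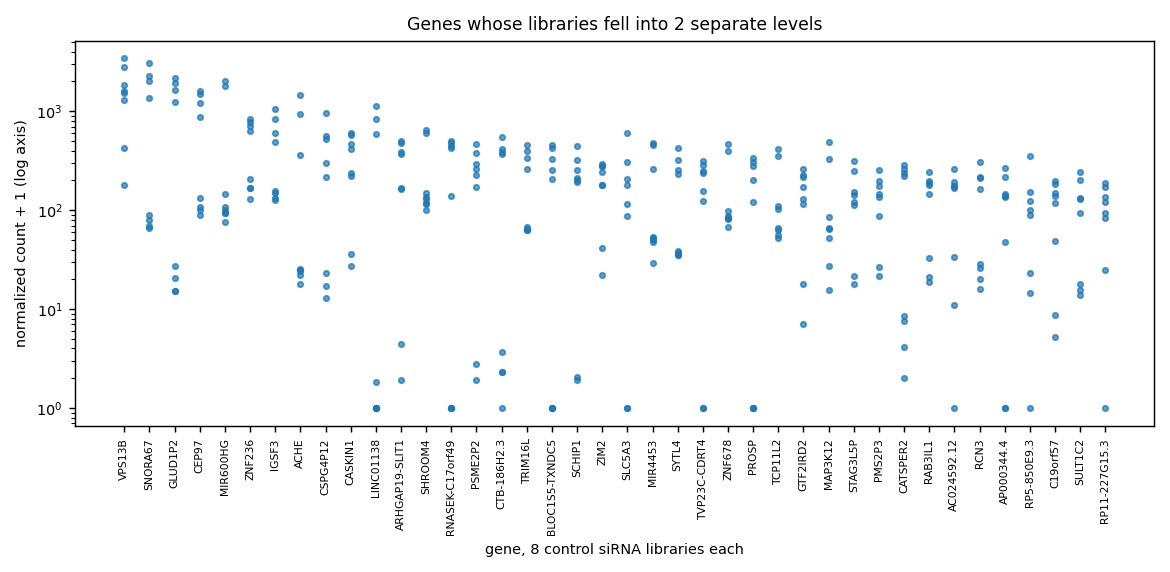
Normalized count + 1 on a log axis in each of the 8 libraries for the 40 genes with 2 levels, ordered by mean. Each column of points has an empty stretch of at least 3-fold, and the libraries above it differ from gene to gene.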

How the data were processed

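RNA of 8 control siRNA cultures of HepG2 was sequenced. The authors deposited a table with a normalized count (a signal) for each of 56969 genes in every library. Per the submitters' processing notes it was produced on hg19 by cutadapt 1.4.2, then STAR 2.4.1d, featureCounts 1.4.4 and DESeq2 1.16.1. The annotation release, strand setting and filters were not given in the sources used here. No mitochondrially encoded gene was found among the symbols of the deposited table, so ranks, shares and TPM totals leave these genes out. Within a library, 100% of values were whole multiples (within 0.001) of a constant, the value of 1 read, and reads were recovered by dividing by it.

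TPM used these reads and the longest transcript in GENCODE release 29 (GRCh38), matched by Ensembl ID for 51634 genes and by unique symbol for 818. The 4517 genes without a length have no TPM, and 98.3% of reads fell on genes with one. A longest transcript that is rarely used lowers a TPM. Lengths of APPRIS principal transcripts, chosen as an alternative after seeing the data, raised 72 of 733 listed genes by over 1.5 times. The median ratio to the main TPM over the 733 was 0.850. Each library is scaled to the same total, so a shorter length for some genes lowers the TPM of the rest. Where more than 30% of exon bases are shared with another gene (IGF2, FTH1, ALDOA, CEBPA, CYP51A1, CD68, TYMS, CDK4, CYP3A7 and HBE1 among those named), reads of the 2 genes may be mixed.

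Gene lists, pairs and the libraries were chosen with earlier results of these data known. Named genes were the 10 highest by count and by TPM, 5 highest and up to 5 lowest members of each list, all fetal and proliferation genes and pairs, the markers, the 10 of highest and lowest CV, and HCFC1, INSR, IGF1R, IRS1 and IRS2, some of them given only within counts. Other members were named for their role after their values were seen. Some genes are not reported here, although list counts and medians include them, and with them 5 of 28 pairs, of which 4 passed the test. The counting CV is the square root of the mean size of 1 read over the mean. edgeR 4.0.16 in R 4.3.3 gave TMM factors and biological CVs only. On simulated counts a true CV of 10% was estimated as 9.38% beyond counting and as 11.3% by edgeR's biological CV. No 2 libraries agreed within sampling noise (chi-square per degree of freedom 12.0 to 35.2). Alternatives were other lengths, thresholds, pseudocounts, scalings and filters, and each library left out. Intervals and limits cover counting error only.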

Additional observations from a re-analysis of the deposited data

Results flagged for a closer look

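In each group of 8 libraries, the highest or lowest value was compared with its nearest neighbour, and it is listed here when the gap, as a share of the whole range, exceeded Dixon's 95% critical value for 8 samples. By chance about 1 in 20 groups is picked out, a rate that does not hold for genes with reads in few libraries, where 1 library must stand apart, or for genes named for their spread (PTPRT, DNAH1, MIR22HG, LINC00910 and HSP90AB1). Of 326 genes named, 42 were picked out. Among the 226 named genes with a mean of at least 100 normalized counts and not named for their spread, 8 were. Of 28 list sums and library measures, 1 was. Values are normalized counts unless stated, and no explanation is weighed.

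Among genes with high counts in all libraries, the highest library held 1723 for CDK2 (others 1403 to 1549.7), 7019 for CDK6, 2875 for CYP51A1, 2676 for DGAT1 and 30610 for RP5-857K21.11. The lowest library held 272697 for FN1 (others 294435 to 313575) and 100426 for HSP90AB1. Among genes of middle level, 1 library was far above the rest for H19 (318, others 54.4 to 91.1), NR5A2 (184, others 4.25 to 13.2), CYP3A5 (206, others 63.9 to 130.2), PTPRT (1433), DNAH1 (1366), MIR22HG (915) and LINC00910 (789.9). For NR5A2, a nuclear receptor of bile acid metabolism, 7 libraries thus lay below 1 TPM and 1 above. Replicate 3 held the high value of CDK6, CYP51A1, H19 and NR5A2.

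The other genes had few reads, so that a handful of them decides the gap. The highest library held 55.9 for CYP2E1, 52.0 for F8, 37.8 for KMO, 36.6 for PLG, 27.8 for CYP2B6, 19.97 for IGF1 and 17.99 for CYP3A4. It held 7.41 for GC, 6.66 for HBZ, 4.65 for VIM, 3.90 for ADH1A, 3.72 for CYP2C19, 3.60 for PTPRC, 3.40 for INSIG1, 2.6 for MYCN, 2.12 for F9 and 1.70 for SLCO1B1. C9 and CYP2C8 stood at 1.30 in 1 library and at 0 in the others. The genes with 1 read in all stood at 1.06 (NNMT), 1.02 (KRT5), 0.930 (GSTP1, MARCO and SLCO1B3), 0.899 (GYS2 and KRT14) and 0.851 (LDHB and KRT16).

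Of the list sums, the fatty acid oxidation and ketogenesis genes summed to 2999.5 TPM in 1 library and to 2844 to 2903 TPM in the others.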

How the results depend on the processing

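Of 660 alternative values, 649 kept their direction and call or stayed within the limits set for a count. The number of expressed protein-coding genes ranged from 11856 to 11867 when each library was left out in turn, and expressed listed genes from 617 to 619. At a threshold of 5 TPM, 10 genes of the cytochrome P450 list (with POR) and 1 endothelial marker were left, against 16 and 4 at 1 TPM. The 10 highest genes by TPM held 6.50% of all TPM, against 8.01% of reads for the 10 highest by count. The order of 3 pairs turned with the length. PYGL over PYGB was -0.31 with the union of exons and -1.20 with the median transcript length, KRT18 over KRT19 was -0.29 with the median length, and DGAT2 over DGAT1 was 0.0634 with the median and 0.62 with the APPRIS length. The other pairs reported kept their side. The median CV of 13.5% became 61.3% with no filter and 11.1% with a filter at a mean of 50, since each covers other genes. The median CV was 13.1% to 13.6% with a library left out. edgeR's biological CV leaves out the counting part. Its median was 15.1% over the same 15917 genes, higher than the 11.4% found here for the CV beyond counting. No paired analysis was possible because only 1 group was described, so the replicate numbers had no other group to pair with. At these depths, a level under 1 TPM often rests on fewer than 20 reads.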

Other observations

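Genes outside every list also stood high, and the highest of them were looked up after the values were seen. Among protein-coding genes, TMSB10, an actin-binding thymosin, was at 2859, 3366 and 3464 TPM in the lowest, median and highest of the 8 libraries, and FN1 at 2860.1, 3162 and 3335 TPM. CALR, P4HB and HSP90B1 encode folding proteins of the endoplasmic reticulum and were at medians of 2271, 1691 and 1242 TPM. The mitochondrial chaperone HSPD1 was at 2335, 2574 and 2919.8 TPM and the peroxidase PRDX1 at 1538, 1614 and 1704 TPM. AGT, which encodes angiotensinogen, a further liver-made plasma protein, was at 1197, 1256 and 1351 TPM. GPX2, a glutathione peroxidase best known from the gut, was at 1107, 1129 and 1254 TPM. DHRS2, a short-chain dehydrogenase, was at 1325, 1379.5 and 1524 TPM, and its mean rose from 1401 to 3715 TPM with the APPRIS principal transcript length. MTRNR2L2 and MTRNR2L12, nuclear near-copies of mitochondrial ribosomal RNA, were at medians of 2728 and 1457 TPM, and reads of the mitochondrial original cannot be told apart from theirs here.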
